A study of Mus musculus with 7 samples.

Results

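A set of 9 transcription factors that sort small cell lung cancer (SCLC) into subtypes or mark the lung and neuroendocrine lineages was followed in single nuclei of mouse SCLC: Neurod1, Pou2f3, Yap1, Insm1, Nkx2-1, Foxa1, Foxa2, Prox1 and Pou3f2. They were chosen by name from the 56941 genes of the count matrices, and all 9 had at least 1 transcript in every animal. Tumors came from 4 male mice, the animals RP1, RP2, RPC1 and RPC2. All 4 carried Rb1 fl/fl and Trp53 fl/fl, and the 2 RPC mice were in addition labelled Casp8-/-, an allele that the study's methods describe as conditional. Inhaled adenoviral Cre deleted the floxed alleles in young adult mice. The CMV promoter that drove Cre is not restricted to a cell type, and which cells recombined was not measured here. Nuclei came from fresh-frozen primary lung tumors taken at the endpoint. Each of the 7 sequencing libraries pooled all 4 animals, and the animal was the replicate. Values per animal are given in the order RP1, RP2, RPC1, RPC2.

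SCLC is a neuroendocrine carcinoma of the lung. Tumors that keep the neuroendocrine program express INSM1, a zinc finger factor of neuroendocrine differentiation, and often PROX1, a homeobox factor of neurons, lymphatic endothelium and several endocrine cells. NEUROD1, a basic helix-loop-helix factor of neurons, POU2F3, the factor that specifies tuft cells, and YAP1, the transcriptional coactivator controlled by the Hippo pathway, each name a proposed SCLC subtype. NKX2-1 sets lung identity and drives surfactant genes in alveolar cells, and FOXA1 and FOXA2 are pioneer factors of endoderm that act with it. POU3F2 is a POU factor of neurons.

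The matrices held 32299909 and 35420582 transcripts in RP1 and RP2 and 72446861 and 57515082 in RPC1 and RPC2. Quality control removed 50, 18, 12 and 19 nuclei, and 80.8% to 85.0% of an animal's nuclei were tumor-like, a name given to the clusters that held the neuroendocrine markers and scored low for the markers of other cells. All 14 neuroendocrine markers were detected in them, at a summed level of 5330 to 7417 CPM (summed counts of a group of nuclei, scaled to a common total). Median transcripts per tumor-like nucleus were 2298 to 3343, higher in both RPC animals than in both RP animals, and a ribosomal RNA gene, Rn18s-rs5, took 7.81% to 9.31% of tumor-like transcripts in RP and 2.78% to 5.07% in RPC. No cell barcode was shared between animals (0 of 38353). The barcode includes the first barcoding well, and no such well was shared between animals (0 of 9), so this check could not show mixing. Casp8, counted over the whole gene, had 56.9 and 60.6 CPM in the tumor-like nuclei of RP and 91.7 and 66.9 CPM in RPC. Whole-gene counts can include introns and exons outside a floxed part, so they do not check the deletion, and the names RP and RPC follow the labels throughout.

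On GRCm39 the members lie on 5 chromosomes. Neurod1 (chr2:79282865-79287294), Insm1 (chr2:146063841-146066940) and Foxa2 (chr2:147884797-147889005) are on chromosome 2, Pou2f3 (chr9:43035228-43121666) and Yap1 (chr9:7932000-8004661) on chromosome 9, and Nkx2-1 (chr12:56578742-56583722) and Foxa1 (chr12:57587414-57593702) on chromosome 12. Prox1 is at chr1:189850232-189904637 and Pou3f2 at chr4:22482780-22488366. Insm1 and Pou3f2 have 1 exon, whereas Pou2f3 has 13 exons over 86439 bases, Yap1 8 over 72662 bases and Prox1 5 over 54406 bases. Nuclear RNA holds introns, so where these are counted the long genes can collect more transcripts than the short ones, and levels were not compared between genes. Whether counting used strand is not given in the sources used here. Nkx2-1 shares 1778 bases with the antisense RNA Gm26973, which had 64.5 and 64.3 CPM in the RP and 148 and 80.2 CPM in the RPC tumor-like nuclei. Prox1 shares 3794 bases with the antisense Prox1os, at 28.2 to 42.1 CPM. Neurod1 lies almost whole inside Cerkl on the same strand, which had at most 0.738 CPM.

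The neuronal factors were close to the limit of detection in the tumor. Neurod1 gave 36 transcripts in all 32032 tumor-like nuclei, which is 0.109 and 0.218 CPM in the RP animals and 0.379 and 0.153 CPM in the RPC animals. A count of 3, the limit that a count of 0 allows, is worth 0.109, 0.109, 0.0568 and 0.0656 CPM in the same animals, so Neurod1 in RP1 stood at that limit. Pou3f2 gave 47 transcripts, at 0.145 CPM in each RP animal, 0.549 in RPC1 and 0.219 in RPC2. RPC1 was highest for both, and the nuclei behind that are described with the tumor clusters. Pou2f3 gave 179 transcripts in 172 nuclei, at 0.982 and 1.24 CPM in the RP animals and 0.871 and 1.57 CPM in the RPC animals. The genotypes overlapped, and 5 nuclei held more than 1 Pou2f3 transcript.

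Yap1 was detected in every animal at a low level. It had 11.5 and 13.2 CPM in the RP animals and 15.3 and 9.42 CPM in the RPC animals, a mean of 12.3 ± 2.49 (SD, n = 4). Both RPC animals lay outside the range of the RP animals, on opposite sides. Insm1 had 16.0 and 9.42 CPM in the RP animals and 10.2 and 16.4 CPM in the RPC animals (mean 13 ± 3.69). Here each genotype had 1 high and 1 low animal. Prox1 varied least, with 279 and 240 CPM in the RP animals and 275 and 262 CPM in the RPC animals (mean 264 ± 17.6). At 1000 transcripts drawn per nucleus, 20.9% to 23.8% of tumor-like nuclei had a Prox1 transcript. In macrophage or monocyte-like nuclei, which should lack Prox1, the share was 6.12% to 15.5%, at a median depth of 3420 transcripts against 2776 in tumor-like nuclei. Without the draw the shares were 48.5% to 59.7% and 35.6% to 45.1%.

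The lung lineage factors were all present. Nkx2-1 had 69.2 and 65.4 CPM in the RP animals and 47.1 and 60.9 CPM in the RPC animals (mean 60.6 ± 9.62). It was the only one of the 7 members that could be tested whose genotypes did not overlap, beside 50.7% of all genes tested. Foxa1 had 28.9 and 25.2 CPM in the RP animals and 37.1 and 28.7 CPM in the RPC animals (mean 30.01 ± 5.05), and RPC2 fell between the RP animals. Foxa2 had 31.5 and 34.1 CPM in the RP animals and 32.2 and 48.0 CPM in the RPC animals (mean 36.5 ± 7.77), so that 1 RPC animal stood above the other 3.

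**Figure D1:**
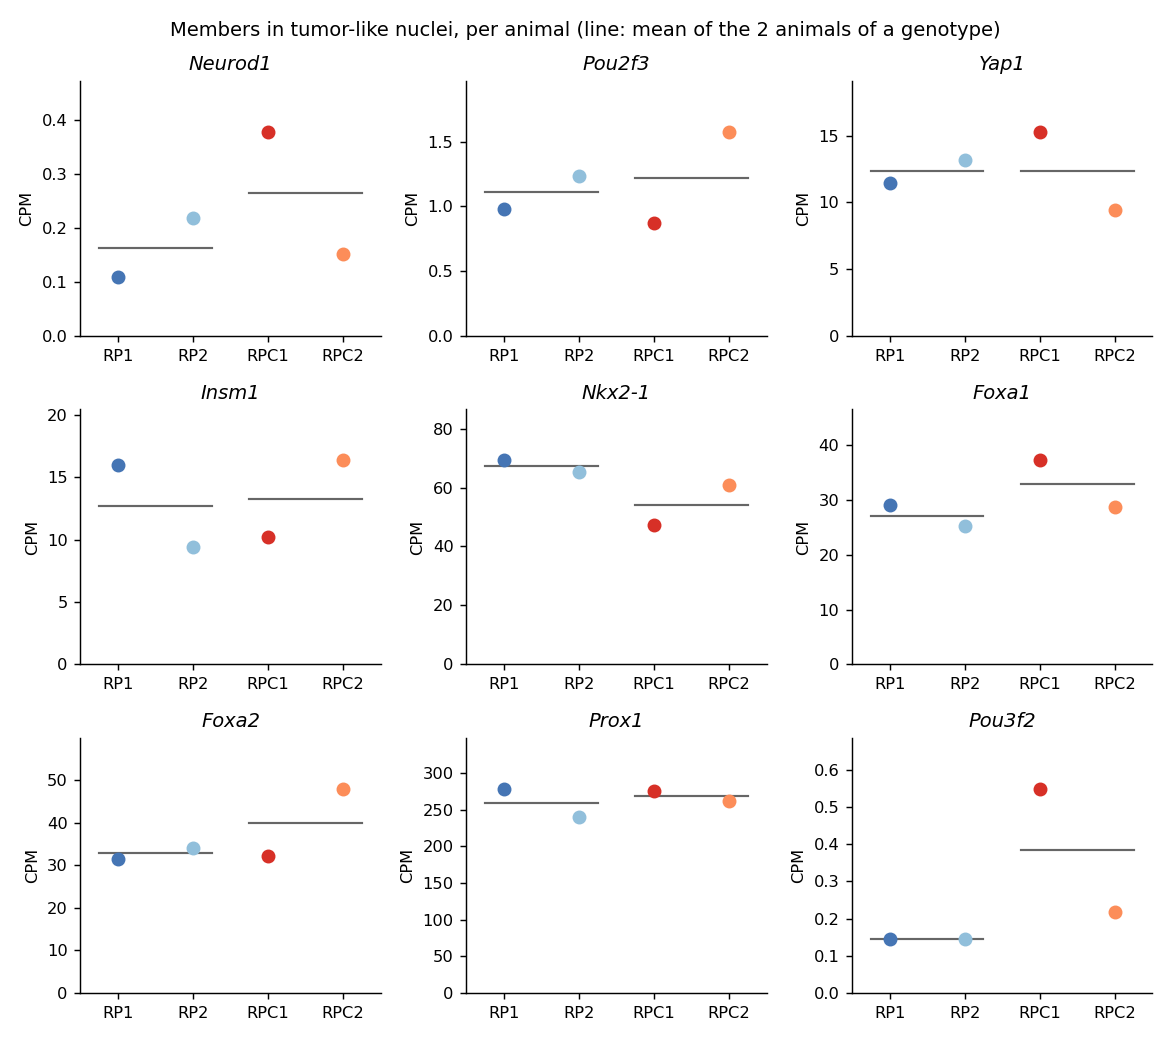
Level of each member in tumor-like nuclei (CPM of the summed counts, vertical axis from 0) for the 4 animals, with a line at the mean of the 2 animals of a genotype. Nkx2-1 lies lower in both RPC animals (47.1 and 60.9 CPM) than in both RP animals (65.4 and 69.2 CPM), and Pou3f2 lies higher, from 4 transcripts in each RP animal and 29 and 10 in RPC1 and RPC2. Without a tumor cluster led by genes of neurons, described below, the genotypes overlap for Pou3f2.

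The comparison of RPC with RP asks whether subtype or lineage factors differ between tumors with and without the Casp8 label. No member was called. Of the 9 members 7 passed the filter on low counts (Neurod1 and Pou3f2 did not), and edgeR's quasi-likelihood test called 0 of the 7 at an adjusted p under 0.05, beside 0% of the 20106 genes tested. At an unadjusted p under 0.05 it marked 15.2% of all genes (3047) and none of the 7. DESeq2 called 1.75% of 36615 genes (639) and none of the 9 members. The levels of the genotypes did not overlap for 50.7% of all genes tested, against 1 of the 7 members.

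Nkx2-1 had the largest difference of the 7, a log2 ratio of RPC over RP of -0.38 (SE 0.19, adjusted p = 0.397 in edgeR), lower in both RPC animals. It was -0.18 without RPC1 and -0.57 without RPC2. The ratio of genotype means was below 0 on the log2 scale in all 7 libraries, from -0.40 to -0.21, although the libraries share the same 4 animals. Between the barcoding wells of 1 animal Nkx2-1 moved as far, from 49.4 to 82.4 CPM in RP1 and from 46.1 to 81.3 CPM in RP2, against 40.8 to 51.6 CPM in RPC1 and 58.3 to 63.6 CPM in RPC2. The antisense Gm26973 was higher in both RPC animals, and the part of depth, of Rn18s-rs5 and of Gm26973 in this difference was not tested.

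The other 6 were nearer to 0 for their error. Foxa2 had a log2 fold change of 0.23 (SE 0.24) and Foxa1 of 0.22 (SE 0.20), both above 0 in all 7 libraries. Pou2f3 had 0.08 (SE 0.44), Insm1 0.00 (SE 0.39), Prox1 -0.01 (SE 0.15) and Yap1 -0.06 (SE 0.29). Adjusted p ran from 0.614 to 0.998 over these 6 in edgeR. Prox1 and Yap1 crossed 0 when the TMM scaling was left out, which moved the median of all genes by less than 0.1.

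Genes around these factors gave no call between the genotypes either. Of 29 neuroendocrine and neuronal factors 20 were tested and 0 called, with a median log2 fold change of -0.38 beside -0.01 over all genes. The largest differences among its well measured genes were in Myt1l (-0.66, SE 0.58) and St18 (0.53, SE 0.18), MYT family factors of neurons and endocrine cells, and in the corepressor gene Runx1t1 (-0.45, SE 0.18). Of 20 tuft cell genes 9 were tested and 0 called (median -0.22), and Dclk1, a kinase gene of this list, had 0.06 (SE 0.45). Of 28 YAP and TEAD genes 25 were tested and 0 called (median 0.11), with the largest differences in Crim1 (-1.07, SE 0.55), Tead3 (0.64, SE 0.30), a DNA-binding partner of YAP1, and Asap1 (-0.52, SE 0.13). All 22 lung epithelial factors were tested and 0 called (median -0.05), with Foxp2 at 1.27 (SE 0.84) and Foxp4 at -0.77 (SE 0.16). The 12 surfactant and secretory targets of NKX2-1 had a median of 0.10 with 0 called, led by Scgb1a1, the club cell secretoglobin, at 1.74 (SE 0.54), and by Sftpb, surfactant protein B, at 0.44 (SE 0.34), and Lpcat1 at -0.23 (SE 0.19). The nuclei named club-like below numbered 38 and 200 in RP and 738 and 212 in RPC. The part of RNA from such nuclei in the Scgb1a1 difference was not tested. The smallest adjusted p among the genes named here was 0.271, for Foxp4.

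Within the tumor, Yap1 took a smaller share of the transcripts of cycling nuclei. A tumor-like nucleus with at least 1000 transcripts counted as cycling when at least 5 of 1000 drawn transcripts came from 47 mitosis and S phase genes, none of them a member. By this measure 3256 of 6310 nuclei were cycling in RP1, 2823 of 6482 in RP2, 4863 of 9027 in RPC1 and 4872 of 8234 in RPC2. The measure is a range and not a type, and 16.3% to 18.0% of these nuclei lay at 4 or 5 transcripts. In non-cycling nuclei Yap1 had 12.9, 14.3, 19.9 and 12.6 CPM, and in the cycling nuclei of the same animals 10.8, 12.2, 12.7 and 7.87 CPM. It was lower in the cycling nuclei of 4 of 4 animals, a log2 ratio of -0.51 (SE 0.10, adjusted p = 0.00164 in edgeR with the animal as a block), and leaving out an animal gave -0.57 to -0.42, with the call kept each time.

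The fall followed the cycle count in steps. Mean Yap1 over the 4 animals was 17.1 ± 4.18 CPM in nuclei with 0 or 1 cycle transcript of 1000, 14 ± 3.19 with 2 to 4, 11.9 ± 1.68 with 5 to 7, 10.8 ± 2.68 with 8 to 12 and 9.38 ± 2.51 with 13 or more. The smallest bin held 677 nuclei of an animal. In RP1 and RPC1 the last 3 bins lay close together, while RP2 and RPC2 went on falling. Yap1 was 1 of 7 tested members called, beside 32.5% of the 16958 genes tested (14.6% higher and 17.9% lower), so 1 call among 7 members is no more than all genes gave. Without the animal as a block Yap1 was not called (adjusted p = 0.633), and 325 genes were.

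Cycling nuclei were also deeper, and the neuroendocrine markers took a smaller share of their transcripts. Their median was 2841 to 3961 transcripts against 2204.5 to 2891 in non-cycling nuclei, and their summed neuroendocrine level was 93.6% ± 1.5 of the animal's tumor-like level against 110% ± 2.95 in non-cycling nuclei. The part of either in the Yap1 difference was not tested. Without the draw, the share of nuclei with a Yap1 transcript was 5.07%, 4.78%, 7.07% and 4.15% in cycling nuclei. In non-cycling nuclei it was 3.80%, 4.59%, 7.40% and 4.70%. A cycling nucleus was thus more often seen with Yap1 in RP1 and RP2 and less often in RPC1 and RPC2.

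The other members stayed under the threshold. Pou2f3 had 0.794, 0.808, 0.762 and 1.1 CPM in non-cycling nuclei and 1.07, 1.73, 0.932 and 1.81 CPM in cycling ones, from 8 to 56 transcripts each. It was higher in the cycling nuclei of 4 of 4 animals (log2 fold change 0.62, SE 0.23, adjusted p = 0.0603 in edgeR). Insm1 was also higher in 4 of 4 animals, by 0.16 (SE 0.08, adjusted p = 0.146 in edgeR). Foxa2 had -0.13 (SE 0.06, adjusted p = 0.0970 in edgeR) and was called when cycling meant at least 8 of 1000 transcripts (-0.16, adjusted p = 0.0458). Nkx2-1 had 0.11 (SE 0.06, adjusted p = 0.176 in edgeR) and was called without RPC1 (0.19, adjusted p = 0.0198), the 1 animal in which it was lower in cycling nuclei. Foxa1 (0.00, SE 0.07) and Prox1 (0.01, SE 0.04) had the smallest differences.

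**Figure D2:**
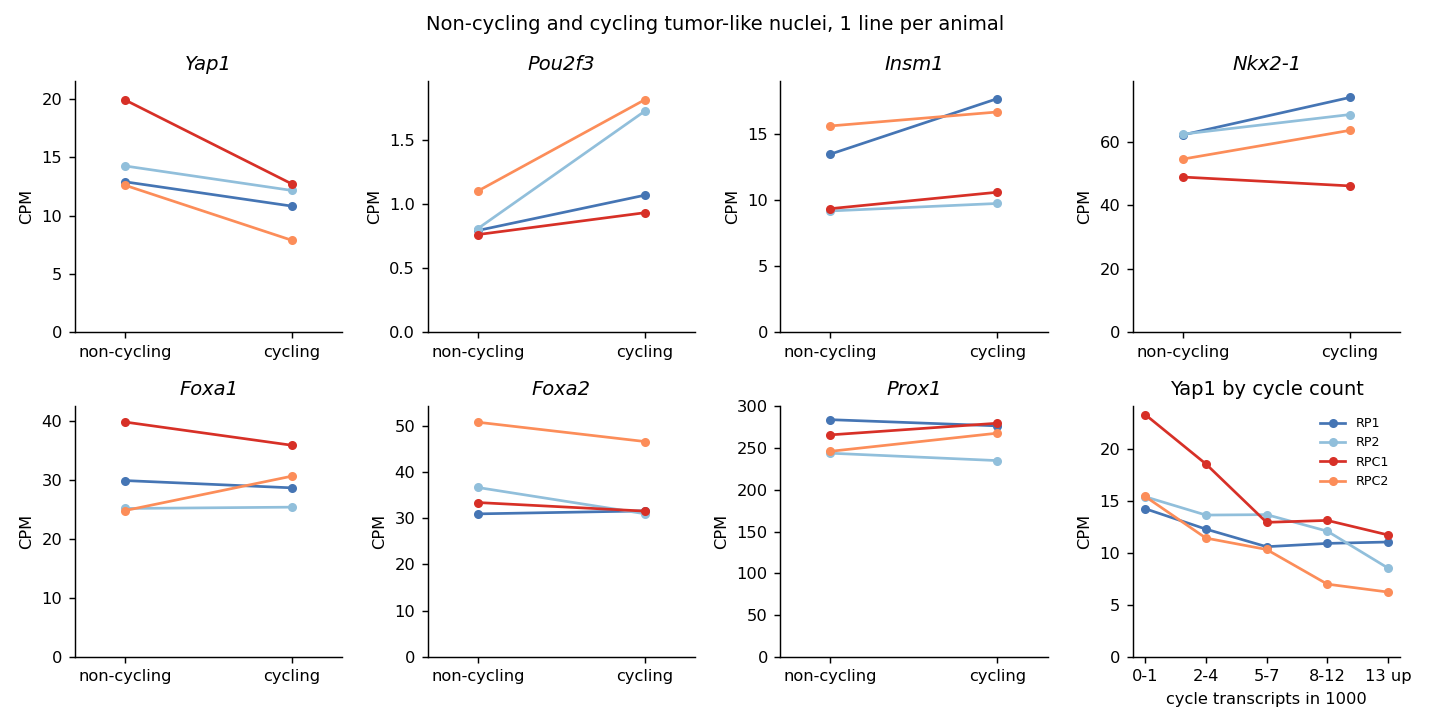
Level in non-cycling and cycling tumor-like nuclei (CPM, axes from 0) of the 7 tested members, 1 line per animal, and in the last panel Yap1 by the number of cycle transcripts among 1000. All 4 Yap1 lines fall, from 12.6 to 19.9 CPM down to 7.87 to 12.7 CPM, and all 4 Pou2f3 lines rise, whereas the Foxa1 and Prox1 lines cross.

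Among the surrounding lists, cycling nuclei held calls in both directions, beside 14.6% of all genes higher and 17.9% lower (32.5% in all). Of 15 tested neuroendocrine and neuronal factors 4 were higher and 4 lower, with Myt1l at 0.45 (SE 0.07) and St18 at -0.27 (SE 0.04). Of 23 tested YAP and TEAD genes 2 were higher and 4 lower, with a median of 0.06 beside -0.02 over all genes, so that the share called was not above that of all genes. Crim1 was lower (-0.24, SE 0.07), while Amotl2, a YAP1 target and inhibitor, had -0.20 (SE 0.12), Tead1 0.08 (SE 0.04) and Wwtr1, the paralog of Yap1, 0.40 (SE 0.19), and these 3 were not called. Of 19 tested lung epithelial factors 1 was higher and 5 lower, among them Foxp4 (-0.25, SE 0.04). Of 5 tested tuft cell genes 1 was higher, Dclk1 (0.48, SE 0.15), and of the 12 NKX2-1 targets 1 was lower.

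Whether the cycling difference itself depended on genotype was tested by an interaction. EdgeR called 0 of the 7 members, beside 0% of 16958 genes. Yap1 fell by more in RPC1 and RPC2 (log2 ratios of cycling over non-cycling of -0.65 and -0.68) than in RP1 and RP2 (-0.25 and -0.23). Its interaction was -0.46 (SE 0.15) with an unadjusted edgeR p of 0.0110 and an adjusted p of 0.904.

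The normal classes of the tumor samples show where the lung factors are found outside the tumor. Clusters were named from markers that include no member, and the members were left out of the genes used for clustering. They gave 240 alveolar type 2-like, 233 alveolar type 1-like, 1188 club-like, 73 ciliated-like, 503 endothelial-like, 445 smooth muscle or pericyte-like, 823 macrophage or monocyte-like, 198 T or NK cell-like, 333 B cell-like and 43 mesothelial-like nuclei. All 9 alveolar type 2, 8 alveolar type 1, 9 club and 12 endothelial markers were detected in their class. RNA of neuroendocrine genes was found in every class. All 14 neuroendocrine markers were detected in each of the 10, and their summed level was 43.8% ± 1.51 of the tumor-like level in alveolar type 2-like nuclei (SD, n = 4), 42% ± 11.8 in alveolar type 1-like, 74.5% ± 7.54 in club-like, 71.8% ± 5.85 in endothelial-like and 63.1% ± 6.10 in macrophage or monocyte-like nuclei. A member's level in a class is therefore given beside these shares, and a level at or below them is not read as expression by the class. Whether free RNA or doublets account for these shares was not tested.

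**Figure D3:**
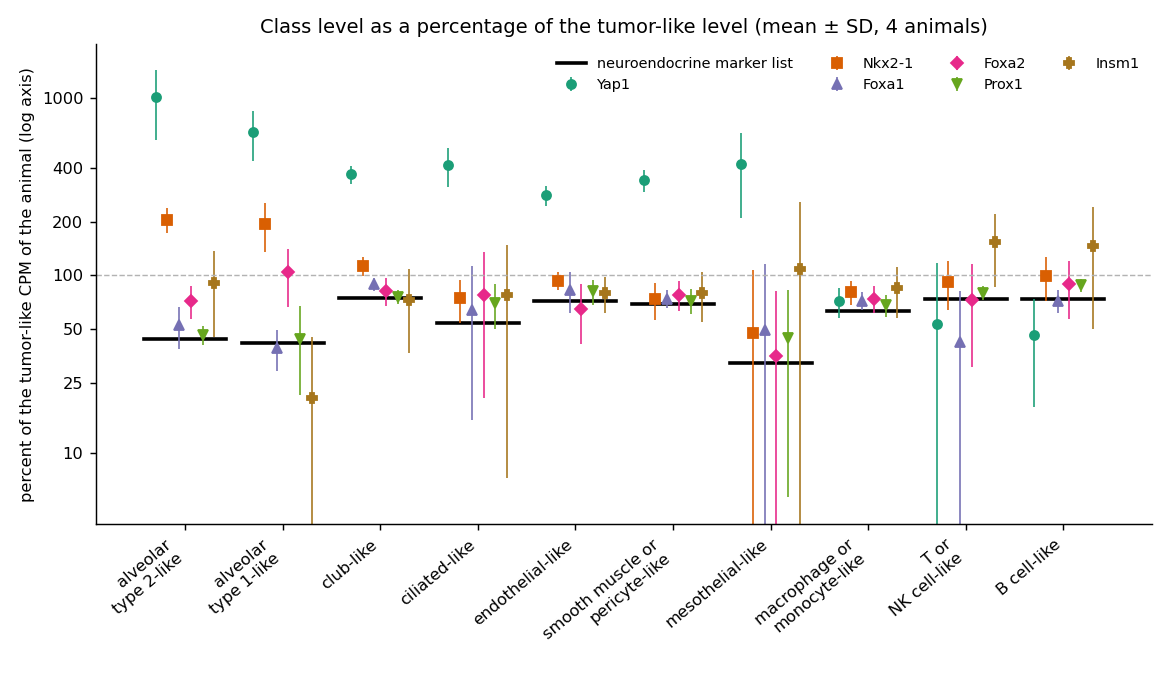
Level of 6 members in each normal class as a percentage of the tumor-like level of the same animal (log axis, mean and SD of 4 animals, with SD bars that reach 0 running off the axis), and the same for the summed neuroendocrine markers (black bars). Yap1 lies far above the bars in alveolar, club-like, ciliated-like, endothelial-like, mural and mesothelial-like nuclei and Nkx2-1 in both alveolar classes, whereas Foxa1 and Prox1 lie near the bars in those 2 classes.

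Yap1 was higher in each of the 4 classes tested. In alveolar type 2-like nuclei it had 181 and 94.3 CPM in the RP animals and 97.5 and 102 CPM in the RPC animals, from 18 to 31 transcripts each, against 9.42 to 15.3 CPM in tumor-like nuclei. The log2 fold change over tumor-like nuclei was 3.09 (SE 0.27, adjusted p = 3.0e-29 in edgeR). It was 2.69 (SE 0.29, adjusted p = 2.6e-19 in edgeR) in alveolar type 1-like nuclei, with 62.0 to 87.6 CPM. In club-like nuclei it was 1.82 (SE 0.11, adjusted p = 7.4e-08 in edgeR), with 31.9 to 52.3 CPM. In endothelial-like nuclei it was 1.45 (SE 0.19, adjusted p = 2.8e-06 in edgeR), with 30.9 to 43.3 CPM. In none of the 4 did an animal overlap the tumor-like range.

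Over the named classes the Yap1 means ran from 119 ± 41.6 CPM in alveolar type 2-like through 76.3 ± 11.6 in alveolar type 1-like, 52.5 ± 25.4 in mesothelial-like, 50.6 ± 12.5 in ciliated-like, 45.6 ± 9.34 in club-like, 42.6 ± 11.7 in smooth muscle or pericyte-like and 34.4 ± 5.98 in endothelial-like nuclei to the tumor-like 12.3 ± 2.49. Below the tumor came macrophage or monocyte-like (8.88 ± 2.90), T or NK cell-like (6.91 ± 8.02) and B cell-like nuclei (5.63 ± 3.47). Yap1 gave 5, 0, 2 and 0 transcripts in T or NK cell-like nuclei and 6, 1, 1 and 1 in B cell-like nuclei. The place of these 2 classes below the tumor could hardly be read. From mesothelial-like to endothelial-like nuclei each step was smaller than the larger SD of its 2 classes, although the last, of 8.16 CPM, was larger than the endothelial-like SD. The step from endothelial-like to tumor-like nuclei was 22.0 CPM and held in 4 of 4 animals. Many club-like nuclei were very deep, and without those above 4 times the median of their animal the club-like level rose to 85.6 ± 10.9 CPM, while the neuroendocrine share there fell to 45%.

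Nkx2-1 was higher in both alveolar classes than in the tumor. In alveolar type 2-like nuclei it had 131 and 113 CPM in the RP animals and 101 and 151 CPM in the RPC animals, above the tumor-like level in 4 of 4 animals (log2 fold change 0.96, SE 0.20, adjusted p = 1.9e-05 in edgeR). In alveolar type 1-like nuclei it had 176, 140, 53.2 and 121 CPM in the same order, again higher in 4 of 4 animals (0.98, SE 0.20, adjusted p = 1.7e-05 in edgeR), with only 7 transcripts behind the low value of RPC1. Club-like nuclei had 67.9 ± 8.47 CPM (0.20, SE 0.09, adjusted p = 0.159 in edgeR). No remaining named class had a mean above that of the tumor. Macrophage or monocyte-like nuclei, which should lack Nkx2-1, had 80.7% ± 12.8 of the tumor-like level. B cell-like nuclei had 99.3% ± 27.8, endothelial-like 93.6% ± 10.9 and T or NK cell-like 92.2% ± 28.2. Ciliated-like nuclei had 74.4% ± 20.5, smooth muscle or pericyte-like 73.4% ± 17.5 and mesothelial-like 47.4% ± 60.7. Each of these means was above the neuroendocrine share of its class. For Nkx2-1 a level above that share is therefore not by itself read as expression by the class.

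Among the named classes Foxa1 had its highest mean in the tumor, at 30.01 ± 5.05 CPM, followed by 27.0 ± 5.35 in club-like nuclei. In alveolar type 2-like nuclei it had 20.1 and 12.2 CPM in the RP animals and 13.4 and 16.3 CPM in the RPC animals, from 2 to 4 transcripts each (log2 fold change -1.11, SE 0.40, adjusted p = 0.0266 in edgeR). The call was lost without RP2 (adjusted p = 0.111), without RPC1 (0.192), without RPC2 (0.0673) and with DESeq2 (0.163). In alveolar type 1-like nuclei it had 8.01 to 15.2 CPM (-1.35, SE 0.41, adjusted p = 0.00602 in edgeR) and was not called without RPC2 (0.111), without very deep nuclei (0.0870) or with DESeq2 (0.0563). The neuroendocrine markers had median differences of -1.33 and -1.23 in the same contrasts, so Foxa1 differed from the tumor about as much as they did.

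Foxa2 was close between alveolar type 1-like nuclei and the tumor, at 36.8 ± 10.5 and 36.5 ± 7.77 CPM (log2 fold change -0.07, SE 0.30, adjusted p = 0.917 in edgeR). This put it at 104% ± 37.6 of the tumor-like level, beside the 42% of the neuroendocrine markers. Foxa2 was also above the marker share in macrophage or monocyte-like (74.0% beside 63.1%) and B cell-like nuclei (89.1% beside 74.1%). It was below that share in endothelial-like (65.0% beside 71.8%) and T or NK cell-like nuclei (72.9% beside 74.2%). A Foxa2 level above the share is therefore not by itself read as expression by the class. In alveolar type 2-like nuclei it had 20.1 to 32.6 CPM (-0.52, SE 0.33, adjusted p = 0.267 in edgeR). In endothelial-like nuclei it had 19.0 and 20.8 CPM in the RP animals and 13.1 and 47.1 CPM in the RPC animals (-0.58, SE 0.19, adjusted p = 0.0380 in edgeR), and RPC2 stood apart in the class as it did in the tumor. That call was lost without RP1 (adjusted p = 0.0982), RP2 (0.141) or RPC1 (0.233), without TMM (0.0593), without the animal block (0.569) and with DESeq2 (0.119).

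**Figure D4:**
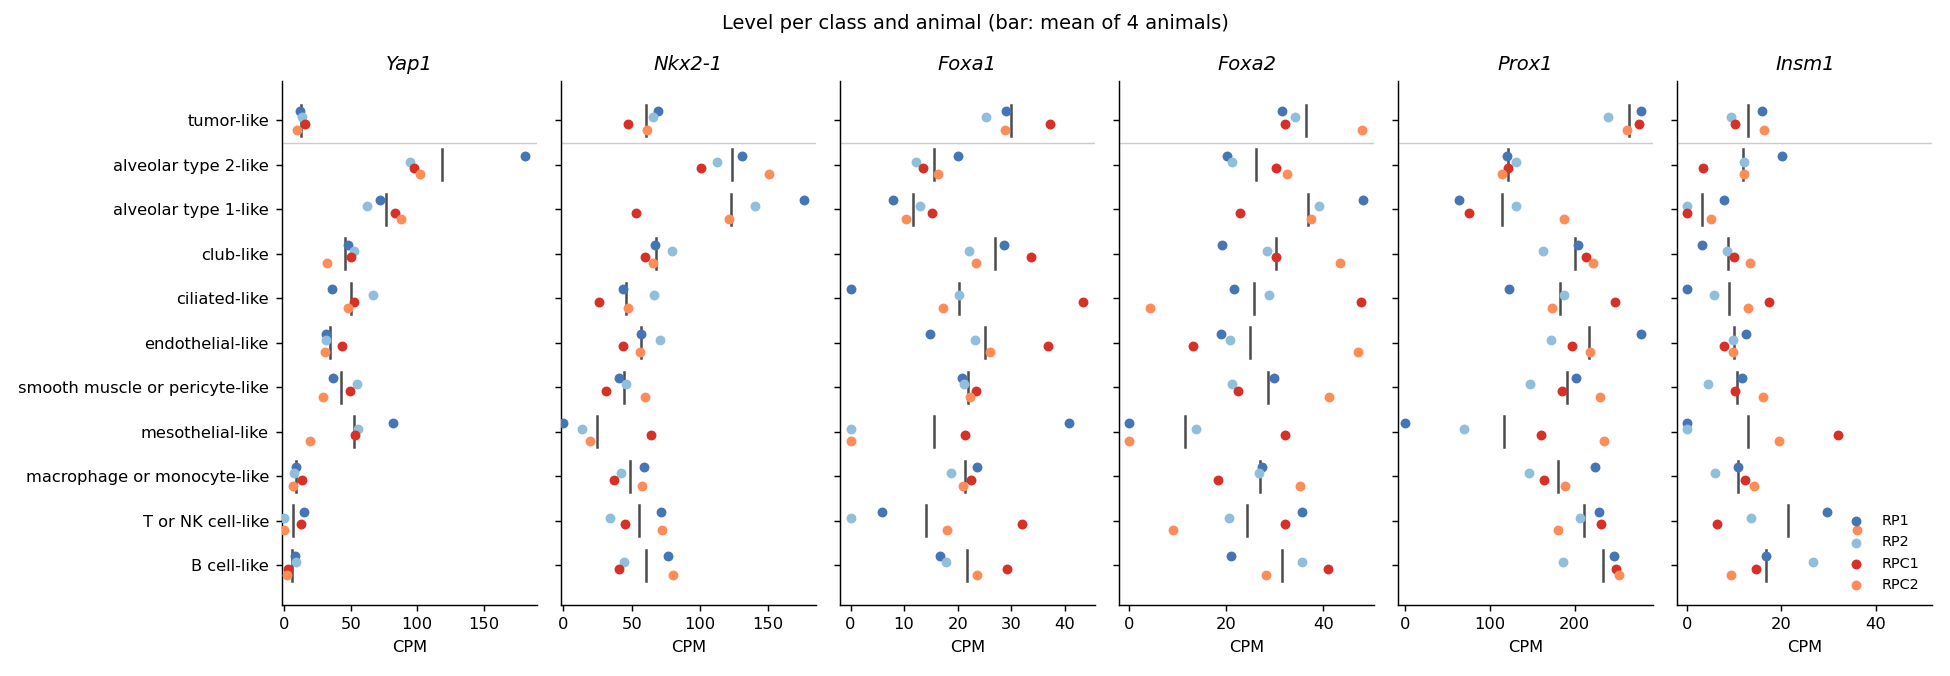
CPM of 6 members in tumor-like nuclei and in the 10 normal classes, 1 point per animal and a bar at the mean of 4 animals (each panel has its own axis). Yap1 and Nkx2-1 stand to the right in the alveolar classes, and of these groups Prox1 has its highest mean in tumor-like nuclei, with 240 to 279 CPM in the animals.

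Prox1 was lower in every class tested than in the tumor. In alveolar type 2-like nuclei it had 121 and 131 CPM in the RP animals and 121 and 114 CPM in the RPC animals (log2 fold change -1.17, SE 0.18, adjusted p = 5.8e-10 in edgeR), and in alveolar type 1-like nuclei 64.1, 131, 76.0 and 187 CPM (-1.09, SE 0.20, adjusted p = 6.0e-07 in edgeR). Club-like nuclei had 163 to 221 CPM (-0.41, SE 0.07, adjusted p = 0.00102 in edgeR). These differences lay beside neuroendocrine medians of -1.33, -1.23 and -0.39. The residual Prox1 in those classes was thus of the size of the neuroendocrine markers, at 46.4% ± 5.49 of the tumor-like level in alveolar type 2-like nuclei, where the markers were at 43.8%.

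Endothelial-like nuclei held 1 group that departed from this. As a whole they had 278 and 172 CPM of Prox1 in the RP animals and 197 and 218 CPM in the RPC animals (log2 fold change -0.36, SE 0.10, adjusted p = 0.0103 in edgeR, not called without RP2, RPC1 or the animal block). A sub-cluster of 33 nuclei was led by lymphatic genes, among them Reln, Flt4, Lyve1 and Mmrn1. Its Prox1 level was 787 and 611 CPM in the RP animals and 932 and 649 CPM in the RPC animals (mean 745 ± 146), from 11 to 23 transcripts each. The other endothelial-like nuclei had 162 to 245 CPM (mean 200 ± 36.2), so the lowest lymphatic value was above the highest of the others. The neuroendocrine markers were at 35.8% ± 22.0 of the tumor-like level in the sub-cluster and at 73.1% ± 5.12 in the others. With 4 to 12 nuclei per animal it was too small for the test, and Prox1 had no part in forming it.

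Members were called in both directions in each of the 4 classes. In alveolar type 2-like nuclei 4 of 7 members were called, beside 25.3% of all genes: 2 were higher (Yap1 and Nkx2-1), beside 10.5% of genes, and 2 lower (Foxa1 and Prox1), beside 14.8%. In alveolar type 1-like nuclei 5 of 7 were called, beside 22.9%: the same 2 higher, beside 10.3%, and Foxa1, Prox1 and Insm1 lower, beside 12.6%. In club-like nuclei 2 of 7 were called, beside 18.2%: Yap1 higher, beside 10.6%, and Prox1 lower, beside 7.56%. In endothelial-like nuclei 3 of 7 were called, beside 17.9%: Yap1 higher, beside 9.26%, and Foxa2 and Prox1 lower, beside 8.68%. With 7 genes these shares are rough, and the lower calls lie beside the lower neuroendocrine markers of each class. Insm1 in alveolar type 1-like nuclei rested on 5 transcripts in all, at 8.01 CPM in RP1, 0 in RP2 and RPC1 and 5.16 in RPC2 (log2 fold change -1.94, SE 0.65, adjusted p = 0.0153 in edgeR), and was not called without RP2 (0.127), RPC2 (0.121), very deep nuclei (0.166) or the animal block (0.0781), or with DESeq2 (0.101). Insm1 was called in no other class tested, and its highest means among the named classes were 21.4 ± 13.7 CPM in T or NK cell-like and 16.9 ± 7.21 in B cell-like nuclei. These means rested on 10, 2, 1 and 4 transcripts in T or NK cell-like nuclei and 12, 3, 5 and 4 in B cell-like nuclei. Neither class was tested, and these levels are not read as expression by the class. Without the very deep nuclei the club-like class gained Foxa1 (-0.84, adjusted p = 0.00609 in edgeR) and the endothelial-like class Nkx2-1 (-0.76, adjusted p = 0.00672 in edgeR).

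Pou2f3, Neurod1 and Pou3f2 could hardly be read outside the tumor. Pou2f3 gave 0 transcripts in both alveolar classes, where 3 transcripts are worth 3.87 to 30.2 CPM in an animal, more than its tumor-like level, and 21 transcripts in 1188 club-like nuclei (0.813 to 3.19 CPM). Neurod1 gave 0 transcripts in both alveolar classes and in endothelial-like nuclei, and 3 in club-like nuclei. Pou3f2 likewise gave 0 in those 3 classes.

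Inside the tumor the 11 tumor-like clusters each took most of their nuclei from 1 animal (76.2% to 99.9%), and each animal was the main one of 2 or 3 clusters. Yap1 ran from 7.71 to 16.3 CPM over the clusters, Insm1 from 9.41 to 18.3, Nkx2-1 from 46.7 to 76.6, Foxa1 from 24.5 to 37.6, Foxa2 from 26.7 to 51.9 and Pou2f3 from 0.518 to 1.75. Each range was wider than that between the animals, and Nkx2-1, Foxa1 and Foxa2 were detected in every cluster. Of the 7 tested members Prox1 had the widest range relative to that between animals, from 217 to 414 CPM over the clusters against 240 to 279 CPM over the animals. It differed between clusters with the same main animal, at 217, 376 and 261 CPM in the 3 clusters mainly of RPC2 and at 266, 314 and 219 CPM in the 3 mainly of RP1. These are pooled values of clusters, with no test.

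One cluster of 675 nuclei, 588 of them from RPC1, was led by genes of neurons such as Lrrtm4, Grik2, Nrxn3, Erbb4 and Dlx6os1. It held 17 of the 36 tumor-like Neurod1 transcripts and 25 of the 47 Pou3f2 transcripts, which gave 2.71 and 3.99 CPM in its pooled nuclei. In the remaining clusters no animal exceeded 0.219 CPM of Neurod1 or 0.175 CPM of Pou3f2. Pou3f2 there had 0.146 CPM in each RP animal, 0.128 in RPC1 and 0.175 in RPC2, so the genotypes overlapped. Prox1 had 414 CPM in its pooled nuclei and 418 CPM in its RPC1 nuclei, against 256 CPM in the other tumor-like nuclei of RPC1. A cluster mainly of RPC2, not led by these genes, came next at 376 CPM of Prox1. Yap1 (10.6 CPM), Nkx2-1 (49.3), Foxa1 (32.1) and Insm1 (10.9) in its RPC1 nuclei were within the range of the animals, and Foxa2 (29.2) was below it. Its neuroendocrine markers were at 78.1% to 99.5% of the tumor-like level. The cluster was formed without the members, but it was singled out after its leading genes were seen, and no test was made.

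**Figure D5:**
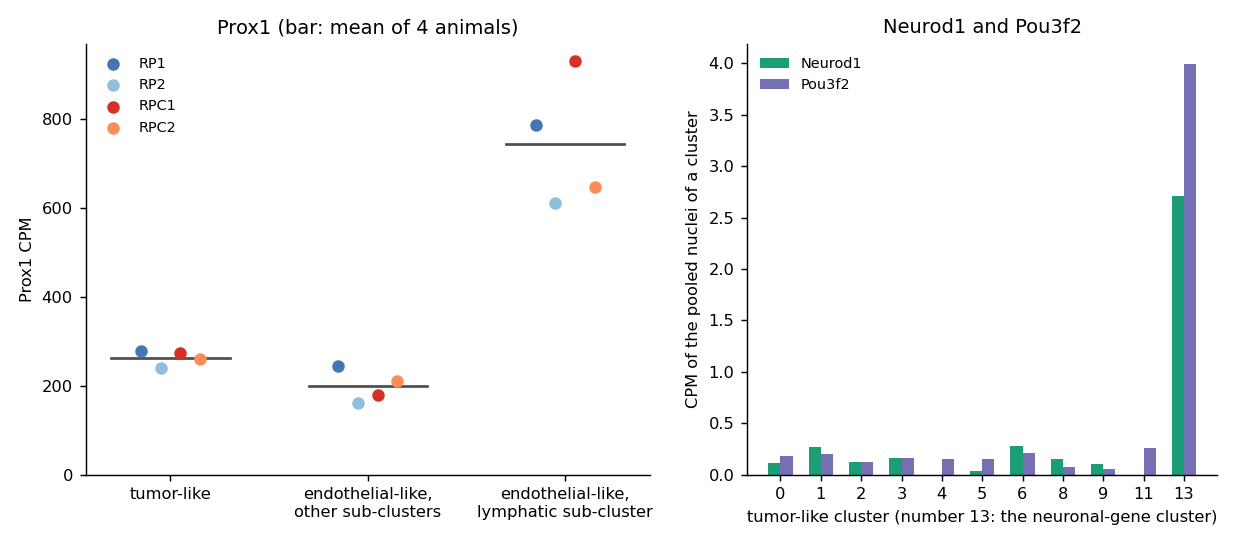
Left, Prox1 (CPM, 1 point per animal, bar at the mean) in tumor-like nuclei, in the lymphatic sub-cluster and in the other endothelial-like nuclei, where the lymphatic points at 611 to 932 CPM stand above all others. Right, Neurod1 and Pou3f2 (pooled CPM, bars from 0) in the 11 tumor-like clusters, where the neuronal-gene cluster reaches 2.71 and 3.99 CPM.

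As a description, the 3 genes of 10742 whose class means followed each member most closely over the 11 classes were listed by Pearson's r. For Yap1 they were Amotl2 (0.97), Erbb2 (0.95) and Msrb3 (0.94), and for Nkx2-1 Tmem245 (0.98), Mbip (0.98) and Cert1 (0.98). For Prox1 they were Pex5l, Scn9a and Insrr (0.99 each), for Foxa2 Vsig10, Cc2d1b and Pskh1 (0.98 each), for Foxa1 Pla2g2c (0.99), Cep76 (0.97) and Mrpl37 (0.96), and for Insm1 Ssr1, Bclaf1 and Sin3a (0.95, 0.95 and 0.95). The points share their libraries and the neuroendocrine RNA found in every class.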

How the data were processed

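Nuclei of 4 mouse SCLC samples were barcoded in 9 wells by split-pool ligation (Evercode WT Mega) and sequenced in 7 libraries. The authors aligned to GRCm39 with the Parse pipeline and deposited raw transcript counts per gene and nucleus, with no normalization. The deposited table of nuclei has 12 columns, of which 9 were not used. Counting inside introns and the use of strand are not given in the sources used here. Gene positions came from GENCODE for GRCm39.

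Nuclei with at least 300 transcripts, at most 10% mitochondrial transcripts and at most 12000 genes were kept, as in the study's methods. No doublet caller was run. Instead, results were repeated without nuclei above 4 times the median of their animal. Nuclei were clustered (2000 variable genes, 20 components, 20 neighbors, Leiden resolution 0.4, seed 1) without the members, and non-tumor clusters again at resolution 1. Names came from 14 marker lists, with thresholds set after the clusters were seen, and 2143 nuclei stayed unnamed. These names are rebuilt and may differ from those of the study.

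Counts were summed per animal and class. CPM are those sums scaled to a common total. Tests were two-sided edgeR quasi-likelihood tests (edgeR 4.0.16, R 4.3.3) with TMM and filterByExpr, adjusted by Benjamini-Hochberg over all genes tested, and with the animal as a block within animals. DESeq2 (1.42.0), the study's tool, was an alternative. Each arm had 2 animals, and nothing says how far they differ in litter or batch. The p-values of RPC against RP rest on the spread between the animals of a genotype. With the animal as a block, they rest on how far the difference within an animal varies between these animals. Tests against tumor-like nuclei were planned for the alveolar, club, ciliated, endothelial and fibroblast-like classes. Ciliated-like nuclei were under 20 in an animal and not tested, no fibroblast-like cluster was found, and the other classes are described with no test. Shares were taken at 1000 drawn transcripts per nucleus, and floors (3 counts) cover counting error only. The fits were tested on simulated data. RP1 minus RP2 and RPC1 minus RPC2 had a correlation of -0.04 over 20106 genes, so no pairing by number was seen. With 4 animals this check cannot show whether some shared a litter or batch.

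Named genes were the 9 members, the 3 largest changes of RPC over RP in each list of average log2 CPM 3 or more, and the 3 genes most like each member with at least 20 CPM. The lists' other named genes were picked after their values were seen. The values of 1 gene that this rule names are not reported here. The members, lists and tests were chosen with earlier results of these data known.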

Additional observations from a re-analysis of the deposited data

Results flagged for a closer look

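Foxa2 moved in opposite directions in the alveolar type 1-like nuclei of the genotypes. The log2 ratio to the tumor-like level was 0.61 in RP1 and 0.20 in RP2 but -0.50 in RPC1 and -0.36 in RPC2, a difference of RPC from RP of -0.83 between the means. It rests on 6, 12, 3 and 29 transcripts, and the difference was not tested.

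Prox1 was slightly lower in the cycling nuclei of both RP animals (log2 ratios of -0.04 and -0.05) and slightly higher in those of both RPC animals (0.07 and 0.12), a difference of 0.14 between the means. The interaction fitted with edgeR was 0.10 (SE 0.07) with an adjusted p of 0.928, so the difference did not pass the test.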

How the results depend on the processing

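The calls of Yap1 in cycling nuclei and of Yap1, Nkx2-1 and Prox1 in both alveolar classes held under every alternative run except 1: without the animal block Yap1 was not called in cycling nuclei.

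Between RPC and RP no member was called under any alternative. The number of genes called was 0, 18 without the filter, 639 with DESeq2 and 0 to 3 when 1 animal was left out. With the replicate block, Nkx2-1 had -0.39 (adjusted p = 0.476 in edgeR) and 0 genes were called. No pairing by the numbers in the labels was seen in the correlation over genes. Members near 0 crossed it. Yap1 had 0.00055 without TMM, 0.011 without the filter, 0.12 over all kept nuclei and 0.21 in non-cycling nuclei alone. Prox1 had 0.051 without TMM, 0.060 without the filter, 0.0024 over all kept nuclei, 0.026 in cycling nuclei alone and 0.032 with DESeq2. Insm1 had -0.021 over all kept nuclei and -0.084 in cycling nuclei alone, where Pou2f3 had -0.079. Leaving out 1 animal gave -0.40 to 0.47 for Pou2f3, -0.43 to 0.25 for Yap1, -0.38 to 0.46 for Insm1, -0.083 to 0.51 for Foxa2 and -0.13 to 0.12 for Prox1.

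In cycling nuclei 2 members were called at a threshold of 8 transcripts, 1 to 2 when 1 animal was left out and 0 without the animal block, where 325 genes were called. Insm1 had -0.024 at a threshold of 8. Foxa1 had -0.077 at a threshold of 3, -0.0078 without the block, -0.00097 in the newer edgeR form, -0.0096 with DESeq2 and -0.092 to 0.083 when 1 animal was left out. Prox1 had -0.0047 at a threshold of 8, -0.017 with the mitosis list alone, -0.014 without the neuronal-gene cluster, -0.0056 with DESeq2 and -0.014 to 0.039 when 1 animal was left out. In the interaction with genotype, 1 gene was called at a threshold of 8, 4 without the neuronal-gene cluster and 0 to 174 when 1 animal was left out (83 without RPC1 and 174 without RPC2), none of them a member. Foxa1 had -0.019 at a threshold of 8, and Foxa2 had 0.10 and 0.092 at thresholds of 3 and 8. Leaving out 1 animal gave -0.58 to 0.077 for Pou2f3, -0.28 to 0.030 for Insm1, -0.16 to 0.28 for Foxa1 and -0.16 to 0.12 for Foxa2.

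In alveolar type 1-like nuclei 3 members were called without very deep nuclei, 3 with DESeq2 and 3 to 5 when 1 animal was left out, and 2389 genes without the block and 2446 to 3319 when 1 animal was left out. Foxa2 there had 0.021 without the block, 0.050 without very deep nuclei, 0.0073 with DESeq2 and -0.18 to 0.11 when 1 animal was left out. In club-like nuclei 1 member and 827 genes were called without the block, 4962 genes without very deep nuclei and 1835 to 3097 when 1 animal was left out, where Pou2f3 ran from -0.036 to 0.18. In endothelial-like nuclei 1 member and 1003 genes were called without the block and 1 to 3 members when 1 animal was left out. The cause of these changes was not tested. Tumor-like clusters led by cycle genes were not found, so that alternative gave no value. With 2 animals per genotype and few transcripts of most members per class and animal, small differences could not be resolved.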

Other observations

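The 2143 nuclei left unnamed had a median of 975 transcripts and 63.9% ± 5.12 of the tumor-like level of neuroendocrine markers. Their CPM of several members was nevertheless above the tumor-like level in 4 of 4 animals: Insm1 had 53.6 ± 17.1 CPM, or 409% ± 17.3 of the tumor-like level, Foxa2 81.4 ± 32.2 (219%), Foxa1 63.9 ± 29.1 (206%), Pou2f3 3.63 ± 0.82 (319%), Nkx2-1 89.8 ± 22.3 (148%) and Prox1 351 ± 83.9 (133%). The Pou2f3 value rested on 3, 2, 2 and 3 transcripts, at or under the floor of 3 counts in every animal. It is therefore not read as a higher level. Yap1 had 70.8% ± 22.2 of the tumor-like level in the unnamed nuclei and was lower in 3 of 4 animals.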
